A study of Mus musculus with 4 samples.

Results

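The mesothelial genes of the serosa comprised 5 genes, Wt1, Lrrn4, Msln, Upk3b and Upk1b, taken by symbol from a table of 24016 gene rows; all 5 were present, each in 1 row listed with 1 copy in the genome. The genes were selected on their counts in these libraries, above all on their lower level after E. coli than after PBS, so the levels and ratios below describe the libraries and test nothing. Germ-free mice of the strain C57BL/6, 7 weeks old, supplied the colon tissue, which was sequenced as RNA in 4 libraries with 1 library per condition. The mice received by oral gavage Lactobacillus rhamnosus GG (LGG, a probiotic strain), Escherichia coli (E. coli) or phosphate-buffered saline (PBS, the vehicle), or were left untreated. Pieces of 4 cm of colon were taken 4 h after gavage, with 4 mice in each gavaged group; how many mice were untreated, and if a library holds pooled RNA, is not stated in the labels. Every group lacked a resident microbiota, and with 1 library per condition no difference has a replicate check and no p-value is given.

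The mesothelium is the single layer of flat cells that covers the outside of the gut, as the visceral peritoneum, and lines the body cavities. It arises from mesoderm but carries epithelial features, and it secretes lubricating glycoproteins and can shed cells or take on fibroblast features after injury. In a piece of whole colon it is a very thin outer sheet, beneath which lie connective tissue, the muscle layers with the enteric nervous system, and the mucosa; fat of the mesentery can stay attached to its outer side.

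Wt1 (NM_144783, chromosome 2, 104966686 to 105013771, plus strand, in mm9) encodes a zinc finger transcription factor required for the mesothelium of several organs. Lrrn4 (NM_177303, chromosome 2, 132694252 to 132706598, minus strand) encodes a membrane protein with leucine-rich repeats that is used as a mesothelial marker. Msln (NM_018857, chromosome 17, 25885558 to 25891272, minus strand) encodes mesothelin, a surface protein held by a lipid anchor that binds the mucin Muc16. Upk3b (NM_175309, chromosome 5, 136514366 to 136520863, plus strand) and Upk1b (NM_178924, chromosome 16, 38773297 to 38800316, minus strand) encode uroplakins, membrane proteins first known from the bladder lining; Upk1b is a tetraspanin that pairs with the uroplakin 3 proteins.

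Promoter sequences from RefSeq (GRCm38.p6) were at hand for 2 of the 5 genes, Lrrn4 and Upk3b, and are shown as a description only. The part of these promoters in the levels of the genes was not tested. Each covers 250 bases before to 50 bases after the annotated start site, 5′ to 3′ on the gene's strand, with the letters GGAATG (the core bound by TEAD factors, which act with Yap in mesothelial and other cells) in capitals, or CATTCC where it lies on the other strand.
Lrrn4, chr2:132880813-132881112, minus strand: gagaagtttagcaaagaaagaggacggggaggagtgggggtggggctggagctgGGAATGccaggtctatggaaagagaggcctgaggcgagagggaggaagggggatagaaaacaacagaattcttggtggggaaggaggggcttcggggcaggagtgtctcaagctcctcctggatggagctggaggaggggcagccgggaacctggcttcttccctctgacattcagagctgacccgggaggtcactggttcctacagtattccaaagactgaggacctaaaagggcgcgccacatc
Upk3b, chr5:136038246-136038545, plus strand: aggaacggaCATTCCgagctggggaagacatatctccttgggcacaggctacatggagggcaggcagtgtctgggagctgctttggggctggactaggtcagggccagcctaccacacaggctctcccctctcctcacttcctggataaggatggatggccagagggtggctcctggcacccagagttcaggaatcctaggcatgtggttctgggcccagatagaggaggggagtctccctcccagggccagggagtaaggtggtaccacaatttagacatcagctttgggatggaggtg
GGAATG occurred once in each window, at bases -196 to -191 of Lrrn4 on the gene's strand and at bases -241 to -236 of Upk3b on the opposite strand. On either strand it is present in 14.7% of 32851 RefSeq promoter windows of this length, so its presence in these windows is a description of their letters. The letters GCGTGGG (a core of sites bound by Wt1 and the Egr factors), GGGCGG (the GC box of Sp factors) and TATAAA were in neither window on either strand, against 5.04%, 35.7% and 13.6% of all windows. GC content was 58.0% for Lrrn4 and 58.7% for Upk3b, against a median of 52.7% over all windows.

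The table assigned 29899371 counts to genes in the LGG, 29368008 in the E. coli, 16289580.0 in the PBS library and 27220697 in the untreated one, so that the PBS library was the shallowest. Levels are given as CPM (counts scaled to library size) with trimmed mean of M-values (TMM) factors, and 0 counts were compatible with at most 0.103, 0.103, 0.187 and 0.105 CPM in these libraries (a floor of 3 counts). All intervals are 95% intervals that cover counting error only, since 1 library per condition gives no measure of variation between mice or pieces. PCR copies were not told apart from separate molecules, which can make even these intervals too narrow. Of the 24016 rows, 14450 had a mean of at least 1 CPM over the 4 libraries, and all 5 mesothelial genes were among them. A gene was past the size rule in a comparison when it had such a mean, a log2 ratio at or beyond 1 or -1, and an interval of that ratio clear of 0. Marker genes of pancreatic acinar cells, which are no part of the colon, were present at a summed 49.9 CPM in the LGG, 89.1 in the E. coli, 24.1 in the PBS library and 3.82 in the untreated one, with none of the 11 genes at 0 in any library. That order of the libraries is the reverse of the order of the summed mesothelial genes given next, and the part of whatever brought these transcripts into the libraries was not tested.

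Together the 5 mesothelial genes held 18.3 CPM (interval 16.8 to 19.9, from 536 counts) in the LGG library, 12.4 CPM (11.1 to 13.7, 360 counts) in the E. coli library, 29.97 CPM (27.4 to 32.8, 481 counts) in the PBS library and 35.1 CPM (33.0 to 37.3, 1002 counts) in the untreated library. The library with E. coli was thus the lowest, that with LGG the next, and the libraries without bacteria the highest, and no counting interval met another. In bulk tissue, fewer mesothelial cells in a piece and less of these RNAs per mesothelial cell cannot be told apart.

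Wt1, the transcription factor, was the least abundant, at 0.889 CPM in the LGG library, 0.620 in the E. coli library, 1.62 in the PBS library and 3.29 in the untreated library. Its highest and lowest levels differed 5.31-fold, the widest range of the 5 genes, and its level in the untreated library stood above the intervals of all the others. Its counts were small, at 26, 18, 26 and 94 in the same order, which sets the width of its intervals. Lrrn4, the leucine-rich repeat protein, had 1.64 CPM in the LGG, 1.58 in the E. coli, 3.99 in the PBS library and 5.26 in the untreated one. The levels after LGG and E. coli were nearly the same, and both lay below the intervals of the libraries without bacteria.

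Msln, the surface glycoprotein, had 5.54 CPM in the LGG, 4.13 in the E. coli, 10.3 in the PBS library and 8.83 in the untreated one. It was the one gene of the 5 whose level was higher in the PBS than in the untreated library, although the counting intervals of these libraries (8.77 to 12.0 and 7.77 to 9.99 CPM) overlapped. Upk3b had 6.77 CPM in the LGG, 3.99 in the E. coli, 9.85 in the PBS library and 12.8 in the untreated one, and its intervals met only, and barely, between the PBS and untreated libraries. Upk1b, the tetraspanin uroplakin, had 3.49 CPM in the LGG, 2.07 in the E. coli, 4.24 in the PBS library and 4.97 in the untreated one. Only the E. coli level of Upk1b lay outside the intervals of all other libraries; its range of 2.41-fold was the narrowest, after 2.49-fold for Msln, 3.19-fold for Upk3b and 3.32-fold for Lrrn4.

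**Figure D1:**
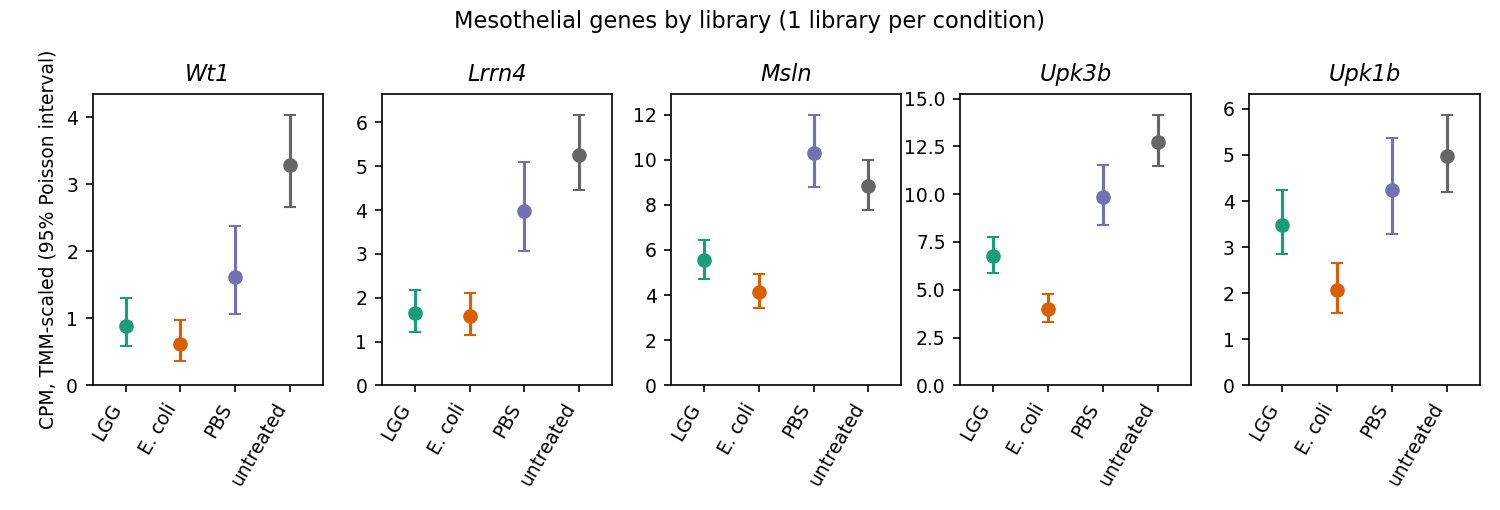
Level of each mesothelial gene in CPM (TMM-scaled, linear axes from 0, 1 panel per gene with its own scale) in the LGG, E. coli, PBS and untreated libraries; points are single libraries and bars 95% Poisson counting intervals. The E. coli library is the lowest in each panel, and the untreated library the highest in each but that of Msln, where PBS stands at 10.3 and untreated at 8.83 CPM.

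Levels of different genes were compared per kilobase of the listed gene length. In the LGG library the order was Upk3b at 3.34, Msln at 2.64, Upk1b at 1.98, Lrrn4 at 0.473 and Wt1 at 0.288 CPM per kilobase, and the intervals of neighbours met except between Upk1b and Lrrn4. In the E. coli library Msln and Upk3b (both 1.97) did not differ beyond counting error, and Upk1b (1.17), Lrrn4 (0.457) and Wt1 (0.201 CPM per kilobase) followed with intervals that did not meet. In the PBS library Msln (4.90) and Upk3b (4.85) were again level, above Upk1b (2.41), Lrrn4 (1.15) and Wt1 (0.526 CPM per kilobase). In the untreated library Upk3b (6.29) stood above Msln (4.21), Upk1b (2.83), Lrrn4 (1.52) and Wt1 (1.07 CPM per kilobase), and only the intervals of Lrrn4 and Wt1 met. The order of Upk1b, Lrrn4 and Wt1 was thus the same in all 4 libraries.

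The first pair, E. coli against PBS, holds the E. coli library (the labels name no strain) and that of its vehicle. All 5 mesothelial genes were lower past the size rule, where 35 of the 14450 tested genes (0.242%) were; nothing is read from this count, since the genes were picked with this contrast known. Wt1 had a log2 ratio of -1.36 (-2.34 to -0.46), Lrrn4 -1.32 (-1.91 to -0.76), Msln -1.31 (-1.67 to -0.97) and Upk3b -1.30 (-1.66 to -0.95), so that these 4 genes were lower by nearly the same factor, 2.46-fold to 2.57-fold. Upk1b was at -1.03 (-1.56 to -0.51), just past the 2-fold threshold, and short of it at -0.97 when 5 counts instead of 0.5 were added. The summed counts gave -1.27 (-1.48 to -1.07), against a median log2 ratio of 0.00 over all tested genes.

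LGG against PBS sets the probiotic beside the same vehicle library, so its values share that library with those above. Here Lrrn4 alone was past the size rule, with a log2 ratio of -1.27 (-1.85 to -0.72), where 14 of all tested genes (0.0969%) were lower. The other ratios spread more than after E. coli: Msln was at -0.89 (-1.21 to -0.57), Wt1 at -0.85 (-1.71 to -0.02), Upk3b at -0.54 (-0.85 to -0.23) and Upk1b at -0.28 (-0.74 to 0.18). Intervals lay wholly below 0 for 4 of the 5 genes, against 13.1% of all tested genes. Nothing is read from this share either, since the genes were picked as higher in the PBS library, which is used again here. The summed counts gave -0.71 (-0.89 to -0.53).

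PBS against untreated compares the libraries without bacteria. Wt1 was lower past the size rule at -1.01 (-1.71 to -0.38), barely beyond the threshold and short of it at -0.94 when 5 counts instead of 0.5 were added, where 113 tested genes (0.782%) were lower. Upk3b was at -0.37 (-0.65 to -0.10), Lrrn4 at -0.40 (-0.84 to 0.03) and Upk1b at -0.23 (-0.67 to 0.20), while Msln was at 0.22 (-0.07 to 0.51). The summed counts gave -0.23 (-0.39 to -0.07), the smallest difference in size among the 6 pairs of libraries.

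LGG against E. coli compares the bacteria without either control. None of the 5 genes was past the size rule, where 38 tested genes (0.263%) were higher. All 5 ratios were positive, with Upk3b at 0.76 (0.42 to 1.10), Upk1b at 0.75 (0.28 to 1.24), Wt1 at 0.51 (-0.40 to 1.47), Msln at 0.42 (0.07 to 0.78) and Lrrn4 at 0.05 (-0.56 to 0.67). Intervals lay above 0 for Upk3b, Upk1b and Msln, against 16.4% of tested genes, and the summed counts gave 0.56 (0.37 to 0.76). Nothing is read from these signs and intervals, since the genes were picked with their low level in the E. coli library known.

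The bacterial libraries were also set beside the untreated library, which holds the largest mesothelial counts. The numbers of mesothelial genes past the rule are again not read as a result, since the genes were picked on their counts in these libraries. In E. coli against untreated all 5 genes were lower past the size rule (221 of all tested genes, 1.53%), with Wt1 at -2.37 (-3.23 to -1.67), or 5.18-fold lower, Lrrn4 at -1.72 (-2.24 to -1.25), Upk3b at -1.67 (-1.99 to -1.37), Upk1b at -1.26 (-1.73 to -0.82) and Msln at -1.09 (-1.42 to -0.78). In LGG against untreated Wt1 at -1.87 (-2.58 to -1.25) and Lrrn4 at -1.67 (-2.18 to -1.20) were past the rule (85 of all tested genes, 0.588%), while Upk3b at -0.91, Msln at -0.67 and Upk1b at -0.51 were not. Scaled by library totals, which moves the median of all genes in this pair to -0.10, Upk3b was past the rule too, at -1.01, and the lower genes numbered 133. The summed counts gave -1.50 (-1.68 to -1.33) for E. coli and -0.94 (-1.09 to -0.79) for LGG against the untreated library, both farther from 0 than against PBS.

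**Figure D2:**
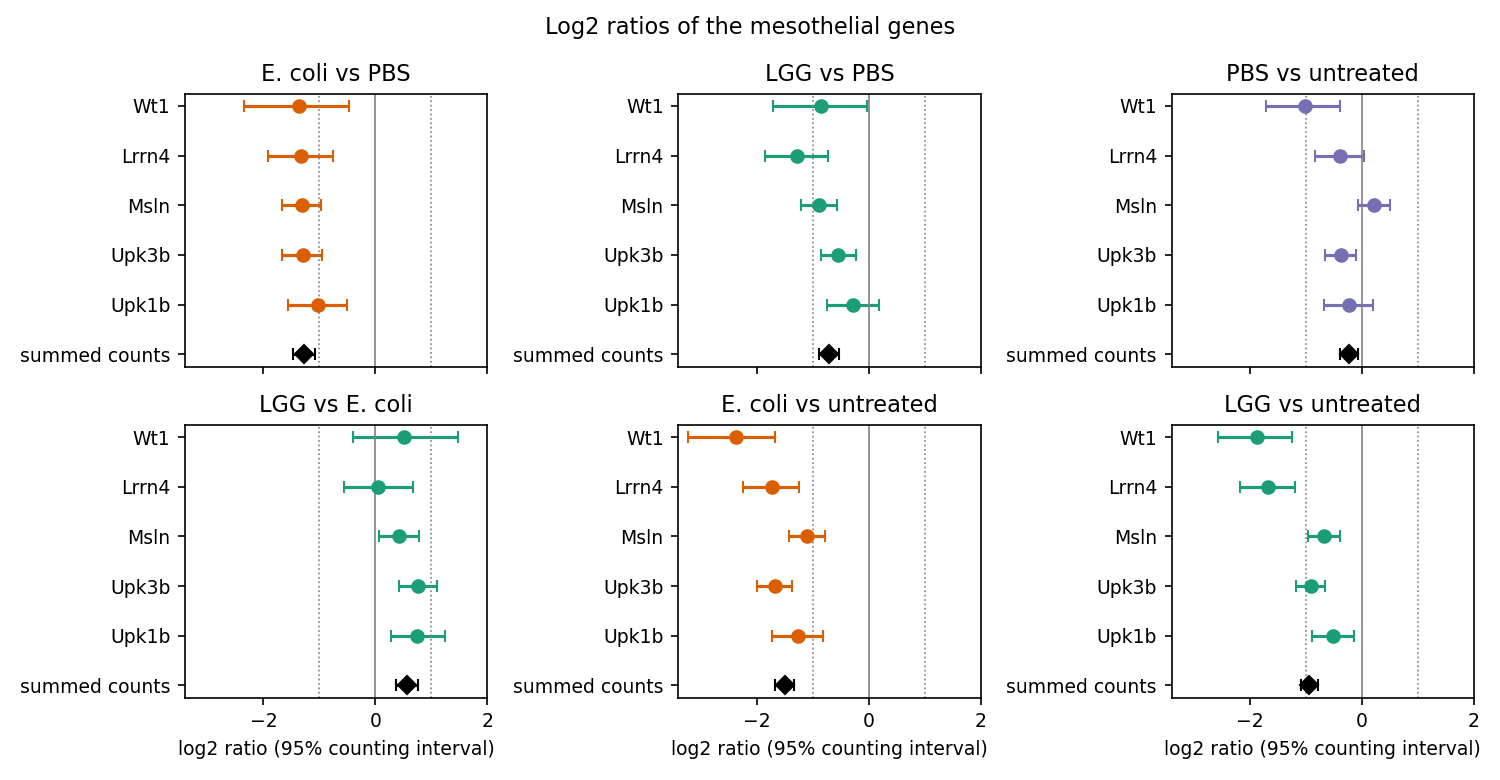
Log2 ratios of the 5 mesothelial genes (circles) and of their summed counts (diamonds) in the 6 pairs of libraries, with 95% counting intervals; the solid line marks 0 and dotted lines mark -1 and 1. All 5 genes lie left of -1 in E. coli against PBS and against untreated, and the summed counts stand at -0.23 in PBS against untreated.

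The make-up of the mesothelial counts was then compared, to show whether the 5 genes kept their proportions to each other. Wt1 made up 4.85% of the 5 genes' counts in the LGG, 5.0% in the E. coli, 5.41% in the PBS library and 9.38% in the untreated one (Wilson intervals 3.33 to 7.01%, 3.19 to 7.76%, 3.72 to 7.80% and 7.73 to 11.3%). Its share was thus alike in the gavaged libraries and higher in the untreated one, with intervals that hardly met. Msln ran the other way, at 30.2% (26.5 to 34.2%) in the LGG, 33.3% (28.7 to 38.4%) in the E. coli, 34.3% (30.2 to 38.7%) in the PBS and 25.1% (22.6 to 27.9%) in the untreated library. Lrrn4 had its lowest share in the LGG library, at 8.96% (6.82 to 11.7%), against 12.8%, 13.3% and 15.0% in the E. coli, PBS and untreated libraries. Upk1b had its highest share there, at 19.0% (15.9 to 22.6%), against 16.7%, 14.1% and 14.2%. Upk3b stayed between 32.2% and 36.9% in all libraries. Between the E. coli and PBS libraries no share moved outside the interval of the other library. The genes were picked as lower after E. coli than after PBS, so alike shares in this pair are partly set by that choice and test nothing.

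**Figure D3:**
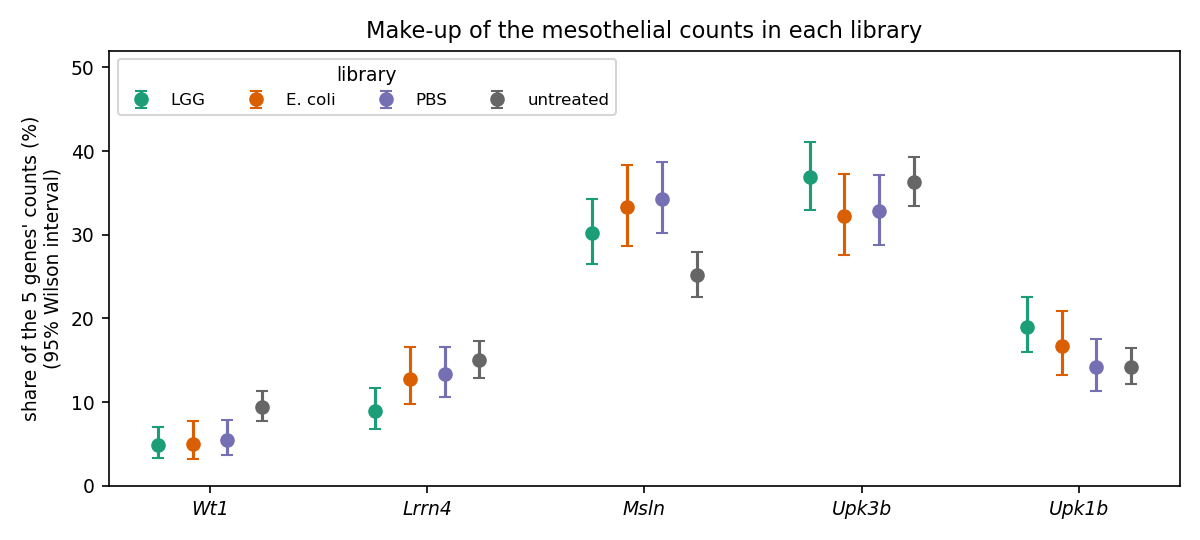
Share of the 5 genes' summed counts taken by each gene in each library, in percent, with 95% Wilson intervals that cover counting error only. The E. coli and PBS points lie close together for every gene, while Wt1 is higher and Msln lower in the untreated library. The genes were picked on their levels in the E. coli and PBS libraries, so that closeness is no separate result.

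A list of 13 other genes of mesothelial cells had 12 in the table and 11 with a mean of at least 1 CPM. Its medians were nearer 0 than those of the 5 genes. Muc16, the partner of Msln, was not analysed here. The 12 genes summed to 255 CPM in the LGG, 220 in the E. coli, 242 in the PBS library and 265 in the untreated one. Of these sums Cldn15 alone held 148, 117, 121 and 138 CPM in the same order. The summed counts of the list gave 0.08 (0.02 to 0.14) in LGG against PBS, against -0.71 for the 5 genes. In E. coli against PBS 2 of the 11 were lower past the size rule, 10 had negative ratios, and the median log2 ratio was -0.42. Rspo1, a secreted enhancer of Wnt signals, was at -1.36 (-2.08 to -0.70), with 1.10 CPM in the E. coli and 2.87 in the PBS library. Gpm6a, a membrane glycoprotein also made by neurons, was at -1.05 (-1.49 to -0.63), with 3.0 CPM in the E. coli and 6.23 in the PBS library. Bnc1, a zinc finger factor of mesothelium and stratified epithelia, had a mean of 0.962 CPM and so missed the abundance filter; its ratio of -2.48 (-3.91 to -1.37) came from 8 counts in the E. coli and 26 in the PBS library.

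Among the other genes of that list, Efemp1 alone had a ratio above 0 between the same libraries. Slpi, a secreted protease inhibitor that epithelia also make, was at -0.83 (-1.16 to -0.50) and Prg4, a lubricating glycoprotein, at -0.49 (-0.82 to -0.16), short of the size rule but with intervals below 0. Cldn15, a claudin shared with gut epithelium, was at -0.05 (-0.13 to 0.03), Efemp1, a matrix protein also made by fibroblasts, at 0.19 (0.04 to 0.33) and Aldh1a2, which makes retinoic acid, at -0.21 (-0.45 to 0.04). Calb2, the calcium-binding protein calretinin that enteric neurons also make, was at -0.42 (-0.63 to -0.20). In LGG against PBS none of the 11 genes was past the rule and the median was -0.05, with Gpm6a at -0.75 (-1.16 to -0.35) and Rspo1 at -0.58 (-1.17 to 0.01). In PBS against untreated none was past the rule and the median was -0.06. In LGG against E. coli none was past it and 9 of 11 were positive, with a median of 0.33. In E. coli against untreated Rspo1 at -1.26 and Gpm6a at -1.12 were lower past the rule, and the median was -0.38. In LGG against untreated none was past it, with a median of -0.23. The keratins Krt7, Krt8, Krt18 and Krt19, which mesothelium shares with the far more abundant gut epithelium, had no gene past the rule in any of the 6 pairs and medians between -0.04 and 0.25; Krt8 stood at 5471 CPM in the LGG, 5069 in the E. coli, 5283 in the PBS library and 4447 in the untreated one.

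Genes of urothelium, podocytes, gonad and oviduct were looked at, as other cells that use uroplakins or Wt1. These lists were not chosen for Lrrn4 or Msln, and the part of such cells in the mesothelial levels was not tested. Of the urothelial uroplakins, Upk2 had at most 1 count and Upk3a at most 2 counts in any library, under the floor of 3 counts. Upk1a, the tetraspanin partner of Upk2, was however present at 21.2 CPM in the LGG, 20.7 in the E. coli, 19.0 in the PBS library and 17.0 in the untreated one. Its ratio was 0.12 (-0.08 to 0.33) in E. coli against PBS, unlike that of its relative Upk1b, and per kilobase it stood at 13.3 CPM against 2.83 for Upk1b in the untreated library. The 6 genes of the urothelial list summed to 1048 to 1333 CPM over the 4 libraries, nearly all of it Krt20, which colon epithelium also makes. Nphs1, a gene of kidney podocytes, which also use Wt1, had at most 2 counts in any library, and neither Podxl nor Synpo, also of the podocyte list, was past the rule in any pair. Of the gonad and oviduct list, Foxl2 and Dmrt1 had at most 1 count and Amh at most 8, and the 3 measured genes Inha, Ovgp1 and Pax8 had none past the rule. The summed level of this list was 10.4 CPM in the LGG, 8.43 in the E. coli, 10.7 in the PBS library and 8.13 in the untreated one.

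Relatives and neighbours of the 5 genes were read from the same table. Lrrn2, a related leucine-rich repeat gene, was at 3.83 CPM in the LGG, 3.96 in the E. coli, 4.24 in the PBS library and 4.73 in the untreated one, a narrower range than that of Lrrn4, and Lrrn3 was at 1.65 to 1.89 CPM. Lrrn4cl, named for its likeness to Lrrn4, was at 3.55 CPM in the LGG library, 4.27 in the E. coli library, 4.11 with PBS and 5.19 without treatment. Lrrn1 was at 0.786, 0.689 and 0.685 CPM in the LGG, E. coli and PBS libraries, against 1.58 CPM in the untreated library. These levels came from 23, 20, 11 and 45 counts, and its mean of 0.934 CPM missed the abundance filter. Mslnl, whose listed span ends next to that of Msln, had 6 to 10 counts in each library, and Upk3bl, a relative of Upk3b on the same chromosome, had 0 to 7.

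Lists for the other layers of the colon wall were set beside the mesothelial genes. Genes of serosal and adventitial fibroblasts, the cells just beneath the mesothelium, had none of 9 past the rule in any pair; their median was 0.02 in E. coli against PBS, 0.06 in LGG against PBS and -0.07 in PBS against untreated. Dpt, a matrix protein, was the most abundant of them, at 153 CPM in the LGG, 146 in the E. coli, 144 in the PBS library and 157 in the untreated one, and Sema3c, a secreted guidance protein, was at 147, 139, 137 and 148 CPM in the same order. The 9 genes together had 478, 470, 460 and 487 CPM in these libraries, with none at 0.

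Adipocyte genes, of fat attached to the serosa, were set beside the mesothelial genes in the same pairs. In E. coli against untreated 6 of 15 were lower past the rule and 14 of 15 had negative ratios, with a median of -0.64, against -1.67 for the 5 mesothelial genes. In PBS against untreated 12 of 15 were negative, at a median of -0.35 with none past the rule, against -0.37 for the mesothelial genes. In LGG against untreated 9 of 15 were negative, at a median of -0.02 with none past the rule, against -0.91. In E. coli against PBS 3 of 15 were lower past the rule, with a median of -0.35: Lep (-1.52), the hormone leptin, Plin1 (-1.35), a coat protein of lipid droplets, and Cfd (-1.03), adipsin. In LGG against PBS, where all 5 mesothelial genes had negative ratios, 13 of the 15 adipocyte genes were on the positive side, at a median of 0.28, and none was past the rule. The 16 adipocyte genes in the table summed to 428 CPM in the LGG, 279 in the E. coli, 350 in the PBS library and 443 in the untreated one, with none at 0. In LGG against E. coli 6 of 15 were higher past the rule, with a median of 0.93, where none of the mesothelial genes was. The part of attached fat in the mesothelial levels was not tested.

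Smooth muscle genes summed to 16139 CPM in the LGG, 14783 in the E. coli, 16209 in the PBS library and 17823 in the untreated one, and enteric neuron and glia genes to 159.5, 137, 162 and 207 CPM. Both lists thus had the order of the summed mesothelial genes, from E. coli (lowest) through LGG and PBS to untreated, but over a narrower range. In both lists the LGG and PBS levels lay close together. In E. coli against PBS 15 of 16 muscle genes and 13 of 14 neuron and glia genes had negative ratios, with medians of -0.13 and -0.25 and none past the rule. Myh11, the smooth muscle myosin, was at -0.11 and Uchl1, a neuronal enzyme, at -0.07. In LGG against PBS the medians were -0.02 and 0.02. Against the untreated library all 14 neuron and glia genes had negative ratios in each of the 3 other libraries, with medians of -0.37 for LGG, -0.67 for E. coli and -0.42 for PBS, the last farther from 0 than the mesothelial median of -0.37. Muscle genes were negative in 13, 16 and 13 of 16 cases in the same order, with medians of -0.15, -0.30 and -0.15. No gene of the muscle list, and of the neuron list Gfap alone, in E. coli against untreated (-1.03), was past the rule in any pair. The part of the amount of outer wall in a piece was not tested.

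Of the large peritoneal macrophage genes, the cells that live in the cavity next to the mesothelium, 5 of 8 were measured. Alox15, a lipoxygenase also made by eosinophils, was at -1.47 (-2.14 to -0.84) in E. coli against PBS, with 1.20 CPM in the E. coli and 3.36 in the PBS library. Gata6, which defines these macrophages but is made by other gut cells too, was at 0.06 (-0.06 to 0.18), and F5, Cd5l and Timd4 were below the abundance filter. The 8 genes together had 107, 112, 111 and 118 CPM in the LGG, E. coli, PBS and untreated libraries, with none at 0. Colon epithelium genes had none of 12 past the rule in any pair, and medians of 0.02 in E. coli against PBS, 0.11 in LGG against PBS and 0.18 in PBS against untreated.

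**Figure D4:**
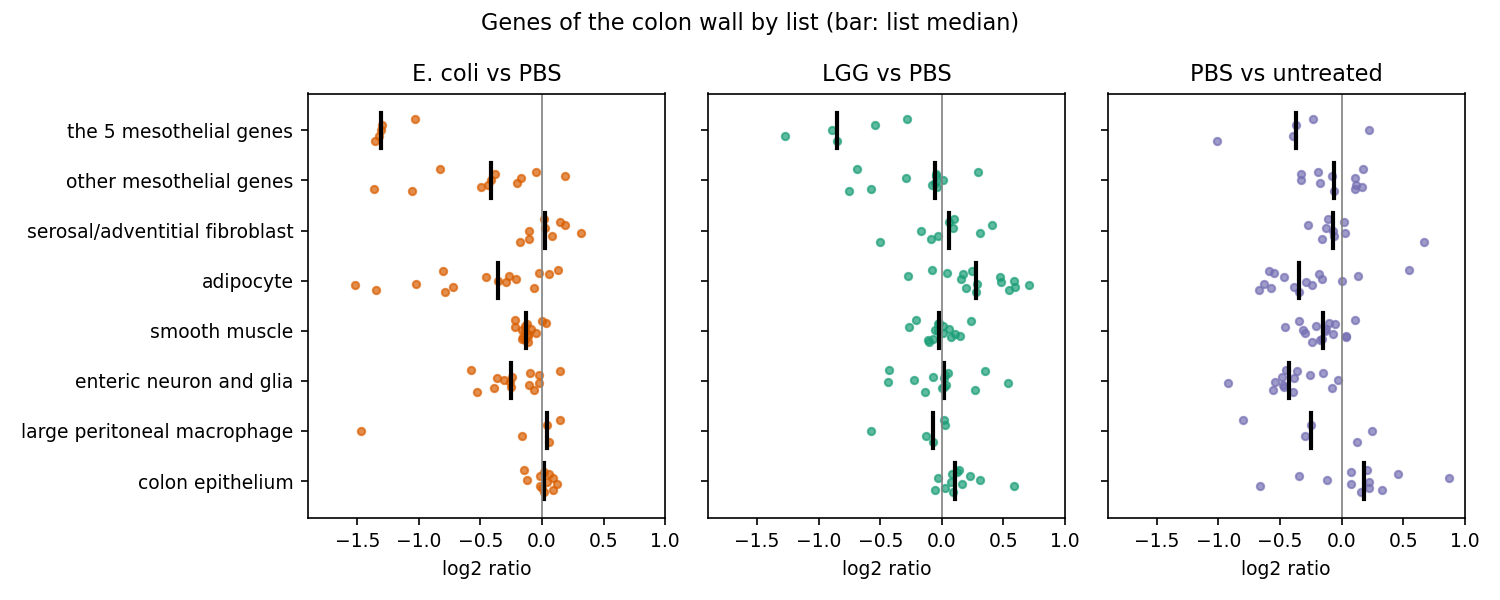
Log2 ratios of single genes (points, those with a mean of at least 1 CPM) and list medians (bars) for the 5 mesothelial genes and 7 lists of other cells of the colon wall, in E. coli against PBS, LGG against PBS and PBS against untreated. In E. coli against PBS the median of the 5 genes is -1.31, against -0.35 for adipocyte, -0.25 for neuron and glia and 0.02 for fibroblast genes; in LGG against PBS it is -0.85, against 0.28 for adipocyte genes.

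Genes with the most similar pattern were sought among 13227 other named protein-coding genes, by the Euclidean distance between log2 CPM profiles centred on each gene's mean over the 4 libraries. The 10 nearest to the mean profile of the 5 genes were Fxyd7, Rbm24, Pkhd1l1, Kcnk2, Gpm6a, Myrf, C3, Xlr3b, Trpc4 and Ptprz1, at distances of 0.15 to 0.43. The 5 genes themselves lay at 0.21 (Upk3b) to 0.62 (Wt1) from their own mean, in which each has a part. Of the other genes, 1 lay nearer to that mean than Upk3b, 10 than Lrrn4, 11 than Msln, 11 than Upk1b and 53 than Wt1. Fxyd7, which belongs to a family of regulators of the sodium pump, was the nearest, with 1.09 CPM in the LGG, 0.826 in the E. coli, 1.74 in the PBS library and 2.31 in the untreated one. C3, the central complement protein, was by far the most abundant of the 10, with 91.9 CPM in the LGG, 84.1 in the E. coli, 147 in the PBS library and 188 in the untreated one. Kcnk2 and Trpc4 encode ion channels, and Gpm6a was the one gene of the 10 that stood in a mesothelial list here. With only 4 libraries many genes can share such a pattern, and the distances are a description.

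The genes nearest to single mesothelial genes differed. Msln was nearest to Ncam2, Gpm6a and Rspo1 (0.22 to 0.28), Upk1b to Slc36a2, Galnt13 and Trpc4 (0.14 to 0.17), and Upk3b to Fxyd7, Xlr3b and Oprk1 (0.26 to 0.32). Lrrn4 was nearest to Pkhd1l1, Fxyd7 and Scn9a, at 0.44 to 0.57. Wt1, nearest to Pkhd1l1, Kcnk2 and Myrf, had its closest gene at 0.62, the largest such distance of the 5. It also had the widest range and the fewest counts, and such distances grow with range and counting error. The distance therefore does not show that its profile was less shared.

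**Figure D5:**
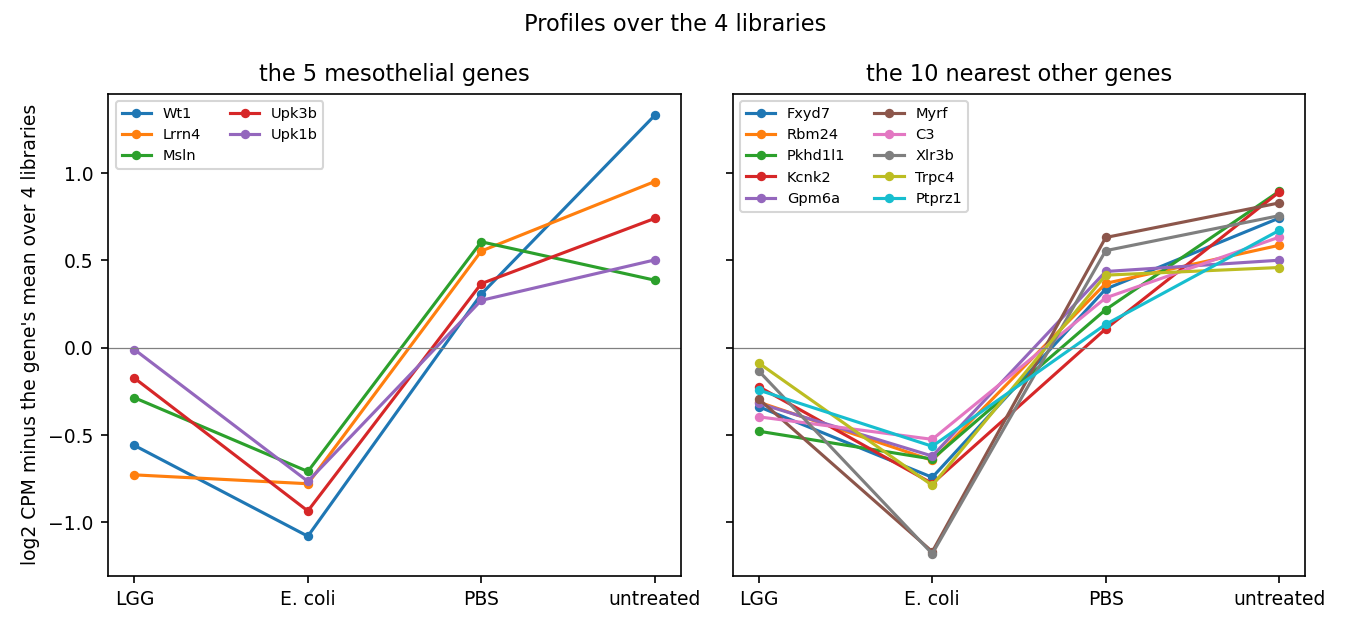
Log2 CPM of each gene minus its mean over the 4 libraries, for the 5 mesothelial genes and for the 10 other genes with the nearest profiles; lines only join the libraries of 1 gene. In both panels the E. coli library is the lowest, and in the first the untreated library is the highest for every gene but Msln.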

How the data were processed

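Colon RNA of germ-free mice was sequenced in 4 libraries, 1 per condition. Per the labels' protocols, RNA was extracted with TRIzol, cleaned on columns with DNase treatment and made into libraries with the Illumina TruSeq RNA v2 kit. TopHat2, HOMER and the mouse build mm9 are named per the submitters' processing notes; no version, strand setting or role of a tool was stated. A single table of expected counts per RefSeq gene was deposited, in steps of 0.5, with coordinates printed as listed; the file does not say how the listed length was made. Counts ending in 0.5 were rounded to whole numbers (numpy 2.4.6, Python 3.11.15, pandas 2.3.3).

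TMM factors came from edgeR 4.0.16 in R 4.3.3. To each count, 0.5 times the relative library size was added before log2 ratios were taken; ratio intervals were exact conditional binomial and level intervals exact Poisson (scipy 1.17.1), at 95%. Figures were drawn with matplotlib 3.10.9. The ratio and size rule were tested on simulated data. The planned count tests need replicates, so no test between conditions was made.

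The members, the 12 gene lists and the rules were chosen with earlier results of these data known. All 5 members are named throughout; of each list, genes past the size rule (up to 4) or the 2 most abundant were to be named, and other list genes, relatives and neighbours named were chosen after their values were seen. The rule for similar profiles left out non-coding rows, predicted genes and Rik clones. Alternatives were DESeq2 1.42.0 size factors, library totals and upper-quartile factors, no filter or a mean of at least 5 CPM, 5 counts added in place of 0.5, a threshold of 1.5-fold, and counts ending in 0.5 rounded down. Some results of the podocyte list are not reported here.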

Additional observations from a re-analysis of the deposited data

How the results depend on the processing

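No paired analysis was possible because each condition has 1 library. The log2 ratios of the 5 genes and of their summed counts stayed inside their main counting intervals in all 6 pairs under every scaling, the prior of 5 counts and rounding down; the largest shift was 0.27, with the prior of 5 counts. With a mean of at least 5 CPM, which only Msln and Upk3b reach, 2 genes were past the size rule in E. coli against PBS and in E. coli against untreated, and 0 in LGG against PBS, LGG against untreated and PBS against untreated. With a prior of 5 counts Wt1 was no longer past it in PBS against untreated, which left 0 genes. At 1.5-fold, 3 were past it in LGG against PBS, 4 in LGG against untreated and 2 in LGG against E. coli. Counts of all genes past the rule were 60 in E. coli against PBS, 40 in LGG against PBS, 209 in PBS against untreated, 52 in LGG against E. coli, 340 in E. coli against untreated and 151 in LGG against untreated. In that order of pairs they were 135, 106, 358, 162, 597 and 333 with no filter, 10, 6, 85, 13, 152 and 51 with a mean of at least 5 CPM, and 212, 227, 855, 316, 1199 and 760 at 1.5-fold. With library totals, genes past the rule in LGG against untreated were 54 higher and 133 lower, against 66 and 85, in E. coli against untreated 90 and 281, against 119 and 221, and in PBS against untreated 73 and 156, against 96 and 113. In LGG against untreated 3 mesothelial genes, in place of 2, were then past the rule. Depth limits Wt1 most, with 18 to 94 counts per library.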

Other observations

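Krt14, a keratin of stratified epithelia in the urothelial list, had 1.44 CPM in the LGG, 1.79 in the E. coli, 3.68 in the PBS library and 1.61 in the untreated one. Like the mesothelial genes it was lower in the bacterial libraries than in the PBS library, but unlike them it was also low in the untreated one. The size rule was passed by its ratios of 1.18 (0.61 to 1.78) in PBS against untreated, -1.35 in LGG against PBS and -1.03 in E. coli against PBS, while Krt5, its usual partner, had 2 to 10 counts per library.

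Wt1os, a non-coding row that ends beside the start of Wt1 on the other strand, was listed with 0.5 counts in the LGG, 2.5 in the E. coli, 0.5 in the PBS library and 7 in the untreated one. These counts are too few to set beside those of Wt1.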
